A study of Mus musculus with 15 samples.

Results

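The 38 genes described here encode the vacuolar proton ATPase (V-ATPase) with its accessory proteins, among them the prorenin receptor (PRR, gene *Atp6ap2*), and core proteins of the lysosome. They were chosen by symbol from the gene count table of RNA from the rostral ventrolateral medulla (RVLM), which holds 55421 genes, and all 38 were among the 14852 protein-coding genes with enough reads to be tested. Of the 38, 18 are V-ATPase genes and 20 are lysosome genes. RNA came from bilateral micropunches of the RVLM of adult mice that all carried a floxed *Atp6ap2* allele. PRR RVLM-Null mice had received AAV-CRE-GFP in the RVLM at least 3 weeks earlier, with Cre driven by a CMV promoter, and WT denotes floxed mice given AAV-GFP. The sequenced groups were PRR RVLM-Null on DOCA-salt (n = 3), WT on DOCA-salt (n = 4), PRR RVLM-Null at baseline (n = 4) and WT at baseline (n = 4). DOCA-salt was a subcutaneous pellet of 50 mg deoxycorticosterone acetate with 0.15 M NaCl as the only drink, and tissue was taken after 13 days. Baseline tissue came from a separate cohort 3 weeks after the virus. In the paper's DOCA-salt protocol the pellet followed at least 3 weeks after the virus, so DOCA-salt tissue was taken later after it. DOCA-salt, cohort and time since the virus therefore cannot be told apart. The labels write PRRf/y for the baseline groups and PRRf/f for the DOCA-salt groups and call every mouse female. The virus was not restricted to 1 cell type, and the punch took in tissue around the RVLM. In such bulk samples, fewer cells of a type and less RNA per cell cannot be told apart.

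The V-ATPase is a rotary pump that uses ATP to move protons into lysosomes, endosomes and, in neurons, synaptic vesicles. Its cytosolic V1 sector hydrolyses ATP and its membrane V0 sector carries the protons. PRR was named for binding prorenin and renin, and its membrane stub is also a V-ATPase accessory protein. Acid in the lysosome is what cathepsins and glycosidases need to break down protein and sugar chains, and the transcription factor TFEB drives many genes of lysosomes and of the V-ATPase through the base motif CACGTG. The RVLM holds the sympathetic premotor neurons that keep up arterial pressure, and DOCA-salt is a model of hypertension driven by mineralocorticoid and sodium.

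Libraries held 19053970 to 23966836 counts at baseline and 23544224 to 30504796 on DOCA-salt. Over the tested genes alone this was 12598105 to 16315902 at baseline and 17253213 to 27172010 on DOCA-salt. Mitochondrial ribosomal RNA took 3.32% to 19.1% of the counts in PRR RVLM-Null mice and 2.42% to 5.84% in WT mice on DOCA-salt, against 20.3% to 25.5% and 20.7% to 28.8% at baseline. Levels are given as CPM, that is counts scaled to a common library size over the tested genes (TMM scaling). *Xist* and Y-linked genes showed a female pattern in 9 libraries and a male pattern in 6, with both patterns in each group. Replicate 3 of the PRR RVLM-Null DOCA-salt libraries stood apart in 3 ways. It carried 19.1% mitochondrial ribosomal RNA, it was the 1 library of its group with the female pattern, and its *Atp6ap2* level lay within the range of WT mice on DOCA-salt. Its female pattern matched the sex on the labels, while replicates 1 and 2 of its group had the male pattern, against theirs. The library is called replicate 3 below by its label only. The supplemental methods also give the sizes of the DOCA-salt groups the other way round from the labels, so each difference between genotypes on DOCA-salt holds only as far as the labels do. Markers of neurons, astrocytes, oligodendrocytes, microglia and endothelial cells had counts in every library. Of 8 markers of RVLM neurons, *Pnmt*, which marks adrenaline-making cells, had a count of 0 in some libraries, and the other 7 had counts in all. The labels do not say which libraries came from separate mice, so p-values measure the spread between these libraries.

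Exon 2 of *Atp6ap2* is the part that Cre removes, so it is shown here beside the measurement that depends on it. It spans chrX:12594761-12594891 on the plus strand (GRCm38, exon 2 of 9 of the main coding transcript), all of it coding. Its 131 bases leave a remainder of 2 after division into codons, so its loss shifts the reading frame. Exon 2 makes up 5.0% of the 2618 exonic bases over which reads of *Atp6ap2* were counted. The gene count therefore includes reads from transcripts with and without it, and protein was not measured in these files.
*Atp6ap2* exon 2: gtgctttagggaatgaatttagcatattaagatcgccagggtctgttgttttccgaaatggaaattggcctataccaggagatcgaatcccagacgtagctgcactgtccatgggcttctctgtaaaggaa

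Promoter windows of 300 bases, from 250 before to 50 after the start, were available from RefSeq (GRCm38.p6) for 31 of the 38 genes. CACGTG, which reads the same on both strands, lay in the windows of 13 of these 31 genes (41.9%), against 11.3% of the 11476 tested genes with a window and 8.09% of all 27025 genes with one. The 13 were *Atp6v0b*, *Atp6v0d1*, *Atp6v0e*, *Atp6v1a*, *Cln3*, *Ctsa*, *Ctsd*, *Ctsl*, *Gaa*, *Gla*, *Glb1*, *Lamp1* and *Mcoln1*. The longer CLEAR motif of lysosomal genes, which is CACGTG with GT directly before it and AC directly after it, lay in 1 of the 31 (*Cln3*) and in 0.671% of tested genes. The windows of 4 genes are shown with CACGTG in capitals. *Lamp2*, *Gaa* and *Atp6v1a* passed a test below, and *Cln3* is shown because it holds CACGTG at 2 places, one of them within the longer motif. The window of *Lamp2*, whose call in WT mice held most widely, has neither motif. *Atp6v1g2*, which also passed, has 2 starts with 0 copies in either window and is not printed, and *Npc1*, which passed too, was not matched to a window. The windows of *Gaa* and *Atp6v1a* hold CACGTG once, 140 and 131 bases before the start.
*Lamp2*, chrX:38456411-38456710, minus strand: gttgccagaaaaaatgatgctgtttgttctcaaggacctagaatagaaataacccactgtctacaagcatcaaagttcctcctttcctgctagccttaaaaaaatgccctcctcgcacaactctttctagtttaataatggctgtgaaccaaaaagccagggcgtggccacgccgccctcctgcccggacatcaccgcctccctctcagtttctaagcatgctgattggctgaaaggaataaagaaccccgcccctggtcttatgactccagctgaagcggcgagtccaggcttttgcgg
*Gaa*, chr11:119267713-119268012, plus strand: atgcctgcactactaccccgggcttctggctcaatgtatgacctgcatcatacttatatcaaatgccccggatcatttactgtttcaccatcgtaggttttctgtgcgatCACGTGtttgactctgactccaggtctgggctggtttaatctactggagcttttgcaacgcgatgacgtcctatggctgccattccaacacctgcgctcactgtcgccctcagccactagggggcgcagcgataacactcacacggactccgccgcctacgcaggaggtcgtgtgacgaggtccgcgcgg
*Atp6v1a*, chr16:44139210-44139509, minus strand: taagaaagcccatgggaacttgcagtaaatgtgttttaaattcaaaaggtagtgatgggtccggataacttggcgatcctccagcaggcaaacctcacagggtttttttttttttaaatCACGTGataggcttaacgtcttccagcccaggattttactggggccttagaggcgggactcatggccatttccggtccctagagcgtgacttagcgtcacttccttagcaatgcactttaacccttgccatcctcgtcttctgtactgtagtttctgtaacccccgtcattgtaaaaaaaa
*Cln3*, chr7:126583187-126583486, minus strand: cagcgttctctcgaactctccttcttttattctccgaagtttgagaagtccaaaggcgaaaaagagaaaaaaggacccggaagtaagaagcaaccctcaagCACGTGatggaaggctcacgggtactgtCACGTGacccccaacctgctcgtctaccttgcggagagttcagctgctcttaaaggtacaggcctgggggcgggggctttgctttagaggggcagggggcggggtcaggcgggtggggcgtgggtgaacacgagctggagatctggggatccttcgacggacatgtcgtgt

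All V-ATPase sectors were present in the punch. To compare genes, levels were divided by exonic length (RPKM, mean of the 15 libraries). Within V1, *Atp6v1g2*, a stator subunit known from neurons, was highest at 98.4 RPKM and *Atp6v1h*, a regulatory subunit, was lowest at 16.3 RPKM. Within V0, *Atp6v0d1*, which links the rotor to V1, was highest at 80.1 RPKM. The small subunit *Atp6v0e* was lowest at 4.24 RPKM, while its paralog *Atp6v0e2* was at 68.9 RPKM. The accessory genes *Atp6ap1* and *Atp6ap2* lay close together at 49.9 and 47.6 RPKM. Lysosome genes spread more widely. *Psap*, the precursor of saposins that help glycolipid breakdown, was at 339 RPKM, the cathepsin gene *Ctsd* at 176 RPKM and the membrane protein gene *Lamp1* at 135 RPKM. At the low end were *Gla*, the alpha-galactosidase gene, at 3.92 RPKM, *Tfeb* at 2.65 RPKM and *Cln3*, which encodes a lysosomal membrane protein lost in Batten disease, at 1.10 RPKM. Of the remaining extremes within a role, the peptidase gene *Tpp1* was at 10.2 RPKM, *Gaa*, the acid alpha-glucosidase gene, at 73.3 RPKM and *Npc2*, which binds cholesterol in the lysosome, at 7.90 RPKM. These lengths are of all merged exons, and the length used changes the order. On the length of the longest transcript, *Atp6v1b2*, a nucleotide-binding V1 subunit, led V1 at 174 RPKM before *Atp6v1g2* at 131 RPKM. In V0, *Atp6v0a1*, a subunit of the proton channel, led at 99.1 RPKM, before *Atp6v0e2* at 91.6 RPKM and *Atp6v0d1* at 88.2 RPKM. *Lamp2* had 11.3 RPKM on merged exons and 30.1 RPKM on its longest transcript.

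**Figure D1:**
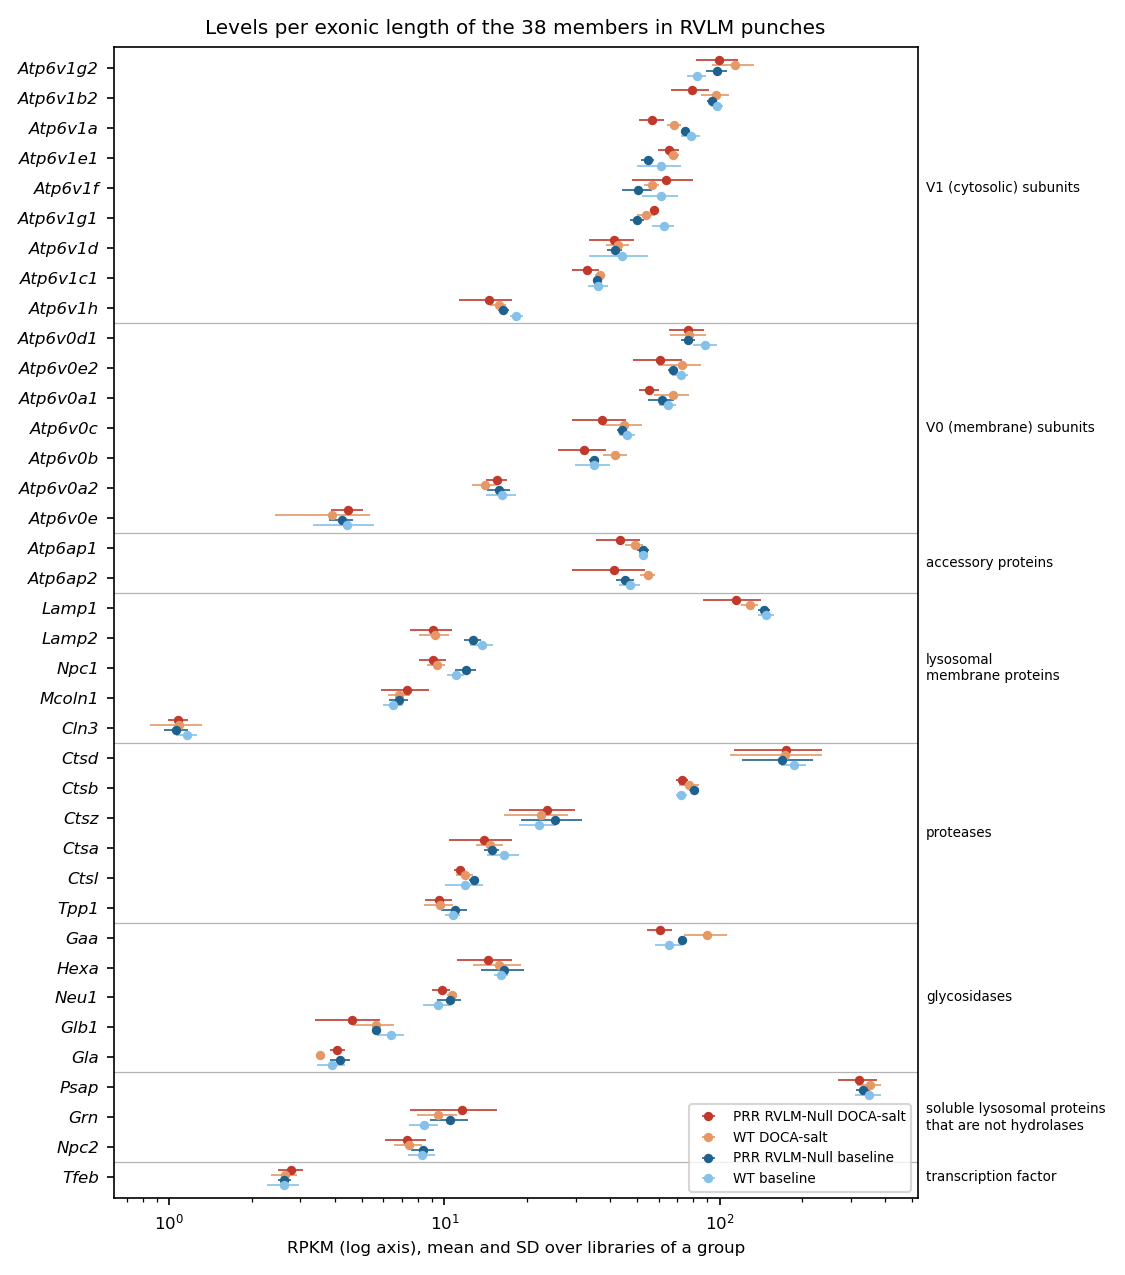
Levels of the 38 genes in RPKM on a log axis, grouped by role, with the mean and SD over the libraries of each group (PRR RVLM-Null DOCA-salt n = 3, the other groups n = 4). The genes run from *Cln3* near 1.10 to *Psap* near 339 RPKM, and the 4 groups of a gene lie close together beside that range.

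On DOCA-salt, 2 of 3 PRR RVLM-Null libraries had less *Atp6ap2*, the targeted gene, than any WT library. PRR RVLM-Null mice on DOCA-salt had 90.2, 89.6 and 145.5 CPM, against 141.6, 133.8, 154.5 and 143.6 CPM in WT mice on DOCA-salt. At baseline the values were 105.7, 119.9, 123.3 and 126.4 CPM in PRR RVLM-Null mice and 114.3, 123.2, 117.4 and 139.2 CPM in WT mice. The first 2 PRR RVLM-Null DOCA-salt libraries lay under every other library of the study, replicate 3 lay among the WT values, and the baseline groups overlapped. On DOCA-salt the difference was -0.40 ± 0.14 on the log2 scale (SE, 95% interval -0.71 to -0.10), or 0.756 times the WT level, and it did not pass the test (edgeR quasi-likelihood, Benjamini-Hochberg adjusted p = 0.229; exact two-sided permutation p = 0.114, where 0.0286 is the smallest possible). Without replicate 1 it was -0.29 (adjusted p = 0.56) and without replicate 2 -0.28 (adjusted p = 0.344). Without replicate 3 it was -0.67 ± 0.11 (adjusted p = 0.00935), and adding a term for the sex pattern to that fit gave -0.80 (adjusted p = 0.00145). Replicate 3 stands apart partly by its *Atp6ap2* level, so these last values describe the other libraries and are no independent test. Within the male pattern the values were 90.2 and 89.6 CPM in PRR RVLM-Null mice against 154.5 CPM in 1 WT mouse. Within the female pattern they were 145.5 CPM in replicate 3 against 141.6, 133.8 and 143.6 CPM in WT mice. With 1 library on a side in each pattern no test was made, and in PRR RVLM-Null mice on DOCA-salt the sex pattern and replicate 3 cannot be told apart. At baseline the log2 difference was -0.06 (95% interval -0.33 to 0.22, adjusted p = 0.923).

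**Figure D2:**
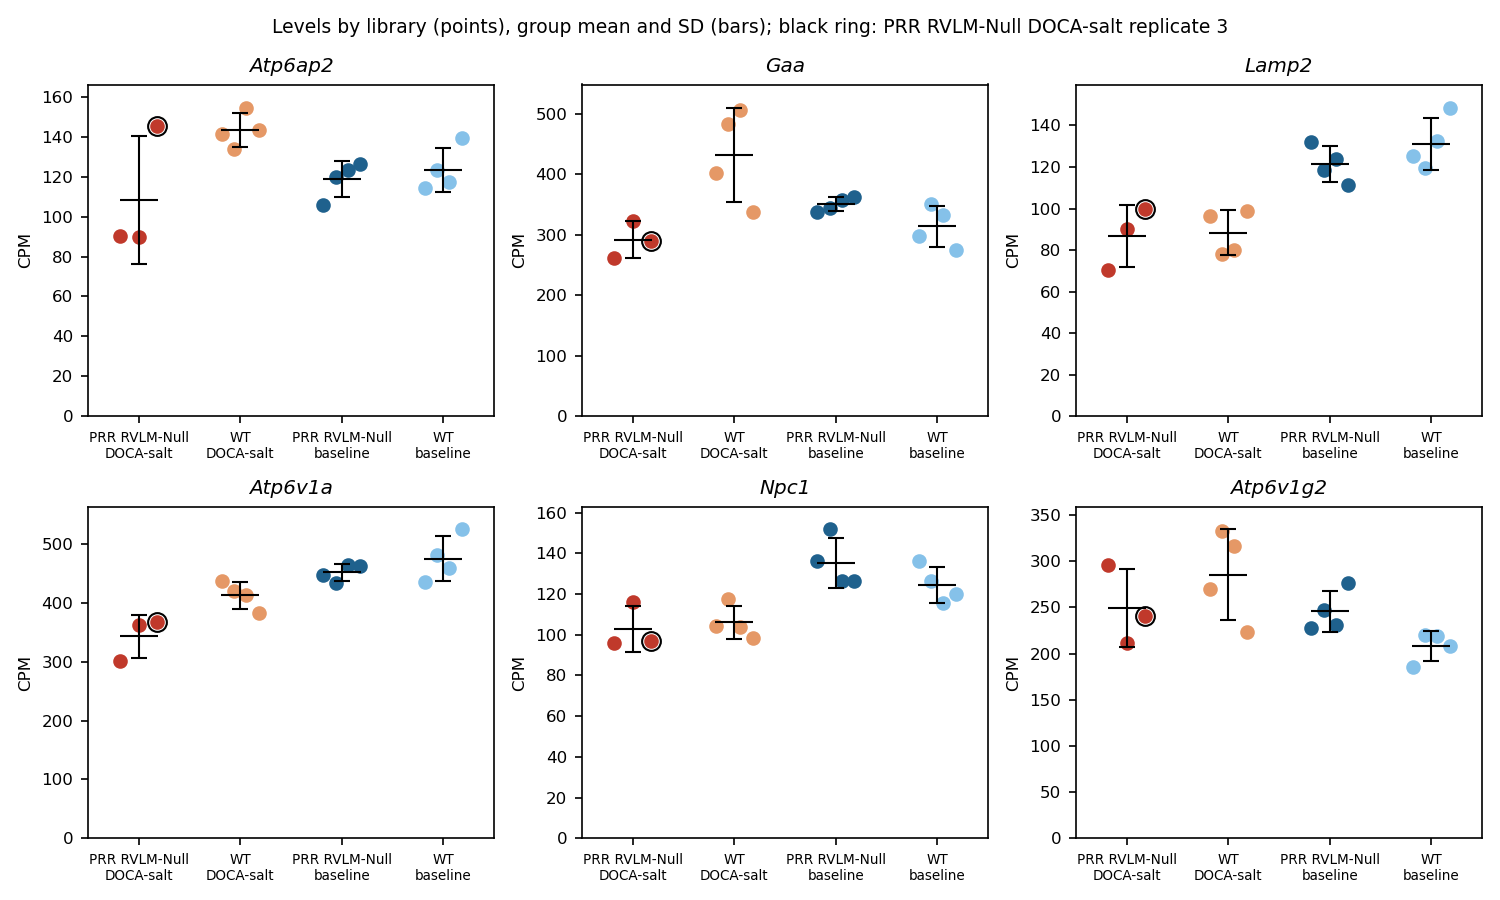
CPM of 6 genes in each library by group, with the group mean and SD as bars and a black ring around PRR RVLM-Null DOCA-salt replicate 3. *Atp6ap2* shows 2 libraries near 90 CPM and the ringed one at 145.5 CPM, and *Lamp2* shows all 7 DOCA-salt libraries under all 8 baseline libraries.

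On DOCA-salt, 0 of the 38 genes passed the test between PRR RVLM-Null and WT (edgeR, adjusted p at most 0.05), as against 0.0202% of all genes tested, which is 3 genes. At an unadjusted p under 0.05 there were 6 of the 38, against 14.2% of all genes. DESeq2 called 1, *Gaa*, and limma voom called 0, but the share of all genes called by these tools is not given here. Fitted differences lay under 0 in 28 of the 38 genes, with a median of -0.07 against 0.02 for all genes tested. Among the V-ATPase genes 14 of 18 lay under 0, with a median of -0.17, made up of 7 of 9 V1 genes, 5 of 7 V0 genes and both accessory genes. The 20 lysosome genes had a median of -0.03, with 14 under 0. These medians moved with single libraries. Without PRR RVLM-Null replicate 1 they were -0.05 for the 38, -0.11 for the V-ATPase genes and -0.0022 for the lysosome genes. Without replicate 2 they were -0.14, -0.16 and -0.14, so that the V-ATPase and lysosome genes were nearly level, and without replicate 3 they were -0.09, -0.24 and -0.04. Leaving out WT replicates 1, 2, 3 or 4 gave -0.06, -0.07, -0.09 and -0.12 for the 38 and -0.0039, -0.06, -0.07 and -0.07 for the lysosome genes.

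*Gaa*, whose enzyme releases glucose from glycogen in the lysosome, had the smallest p of the 38. It was at 262.2, 323.0 and 289.1 CPM in PRR RVLM-Null mice on DOCA-salt, against 401.4, 484.0, 506.2 and 336.9 CPM in WT mice on DOCA-salt. The groups did not overlap, and WT replicate 4 lay nearest the PRR RVLM-Null values. The log2 difference was -0.57 ± 0.13 (adjusted p = 0.0943; exact permutation p = 0.0571). It passed without WT DOCA-salt replicate 4, at -0.67 (adjusted p = 0.0254), and in DESeq2, at -0.57 (adjusted p = 0.00593), while its adjusted p lay between 0.00593 and 0.482 across the alternatives.

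*Atp6v1a*, the catalytic V1 subunit, was at 301.6, 362.4 and 367.1 CPM in PRR RVLM-Null mice on DOCA-salt, against 437.6, 419.6, 413.2 and 382.6 CPM in WT mice on DOCA-salt. Every PRR RVLM-Null library lay under every WT library, at a log2 difference of -0.27 ± 0.09 (adjusted p = 0.229). *Atp6v0b*, a subunit of the V0 rotor, was at 52.4, 67.3 and 78.9 CPM in PRR RVLM-Null mice, against 84.7, 77.1, 83.7 and 97.4 CPM in WT mice, and its groups overlapped through replicate 3 (log2 difference -0.37 ± 0.13, adjusted p = 0.231). Groups did not overlap for 4 of the 38 genes against 8.73% of all genes. Of these, *Atp6v1a* and *Gaa* were lower (4.84% of all genes) and *Atp6v1g1* and *Gla* higher (3.89% of all genes). The other X-linked genes were *Gla*, with a log2 difference of 0.20 ± 0.12 (adjusted p = 0.482), *Atp6ap1*, with -0.18 ± 0.11 (adjusted p = 0.487), and *Lamp2*, with -0.03 ± 0.13 (adjusted p = 0.943), whose sign turned with the setting.

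**Figure D3:**
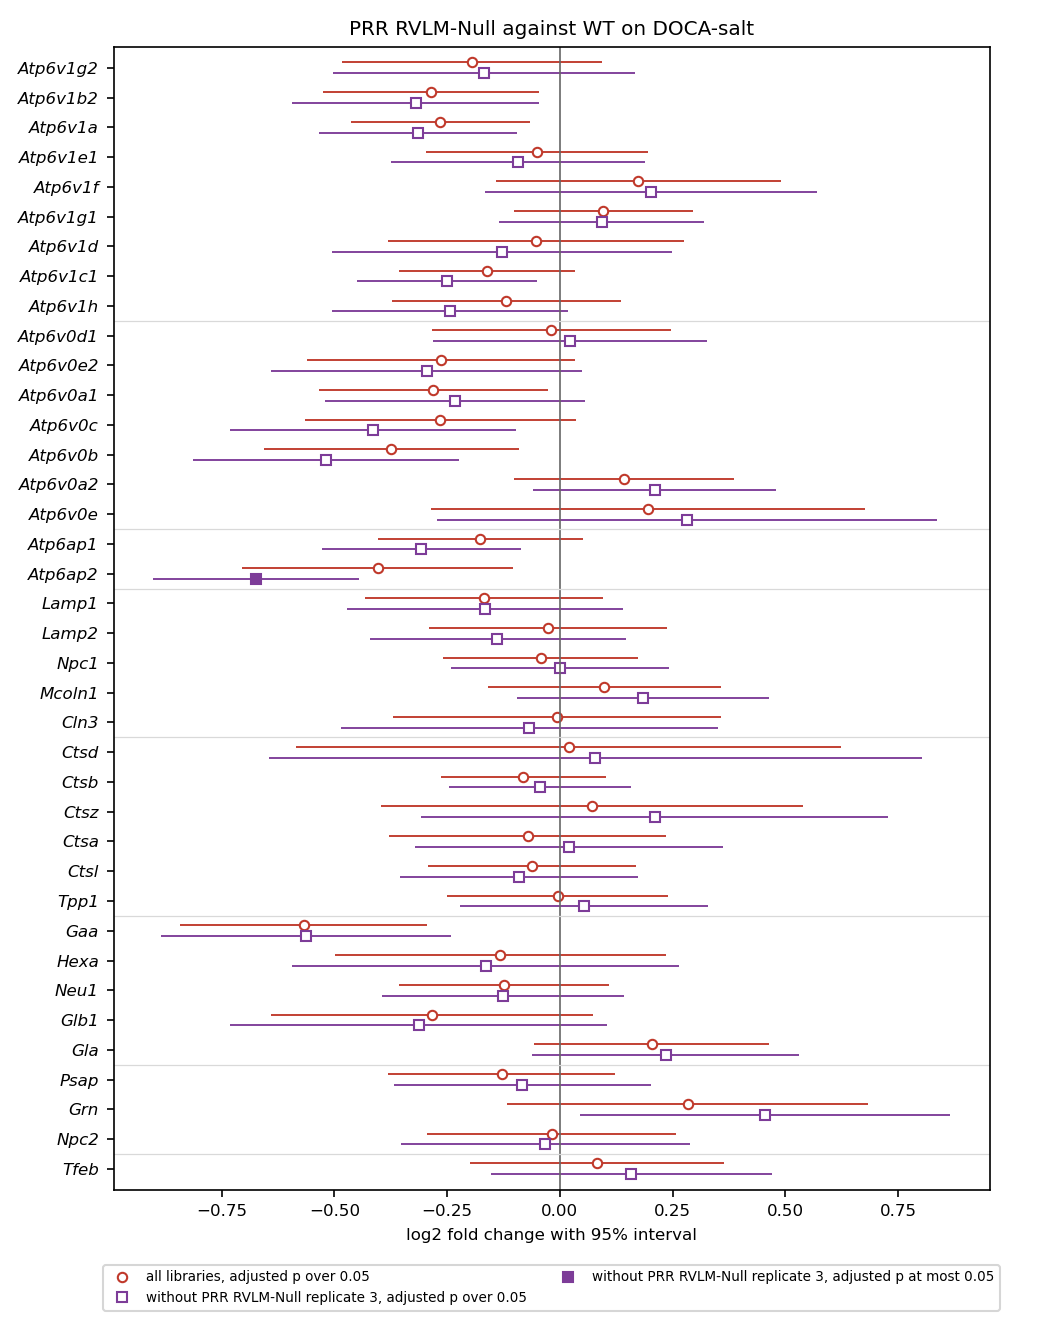
Log2 fold change with 95% interval of each gene in PRR RVLM-Null against WT mice on DOCA-salt, for all libraries and without PRR RVLM-Null replicate 3, with filled symbols for an adjusted p at most 0.05. With all libraries 0 of 38 symbols are filled, and without replicate 3 *Atp6ap2* is filled at -0.67, where 1.19% of all genes passed. Replicate 3 was set apart partly by its *Atp6ap2* level, so the filled symbol is no independent test.

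The negative side of this comparison was carried unevenly by the 3 PRR RVLM-Null libraries. Replicate 1 was the lowest of the 7 DOCA-salt libraries in 18 of the 38 genes (47.4%), against 22.1% of all genes tested. It was the highest in 3 (7.89%), against 22.6% of all genes. Genes with a count numbered 26668 in replicate 1 and 33353 to 42650 in the other DOCA-salt libraries, and the part of this was not tested. Replicate 1 lay below the range of the 4 WT libraries in 20 genes (52.6%, against 29.5% of all genes) and above it in 5 (13.2%, against 29.3%). Replicate 2 lay below in 11 (28.9%, against 25.6%) and above in 8 (21.1%, against 27.0%), and replicate 3 below in 8 (21.1%, against 21.9%) and above in 4 (10.5%, against 24.0%). For *Glb1*, the beta-galactosidase gene, the 3 PRR RVLM-Null libraries had 9.93, 17.3 and 14.5 CPM, against 21.0, 16.4, 16.3 and 14.1 CPM in WT mice. Replicate 1 alone was below the WT values there, and the log2 difference of -0.28 ± 0.17 did not pass (adjusted p = 0.477). Cell markers also differed between these groups. Summed endothelial markers were 404.3 to 469.8 CPM in PRR RVLM-Null mice and 350.7 to 373.7 CPM in WT mice, with fitted differences above 0 for 8 of 8 markers, and summed markers of RVLM neurons were 131.6 to 180.7 CPM and 186.0 to 367.6 CPM, with 5 of 8 under 0. Neither sum overlapped between the groups. Summed oligodendrocyte markers were 13270 to 17000 CPM in PRR RVLM-Null mice and 9722 to 13390 CPM in WT mice, with fitted differences above 0 for 5 of 10 and under 0 for 5. By edgeR 0 markers of these lists passed. At an unadjusted p under 0.05 there were 3 of 8 endothelial, 3 of 8 RVLM neuron and 2 of 10 oligodendrocyte markers, against 14.2% of all genes. The part of these markers in the result was not tested.

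**Figure D4:**
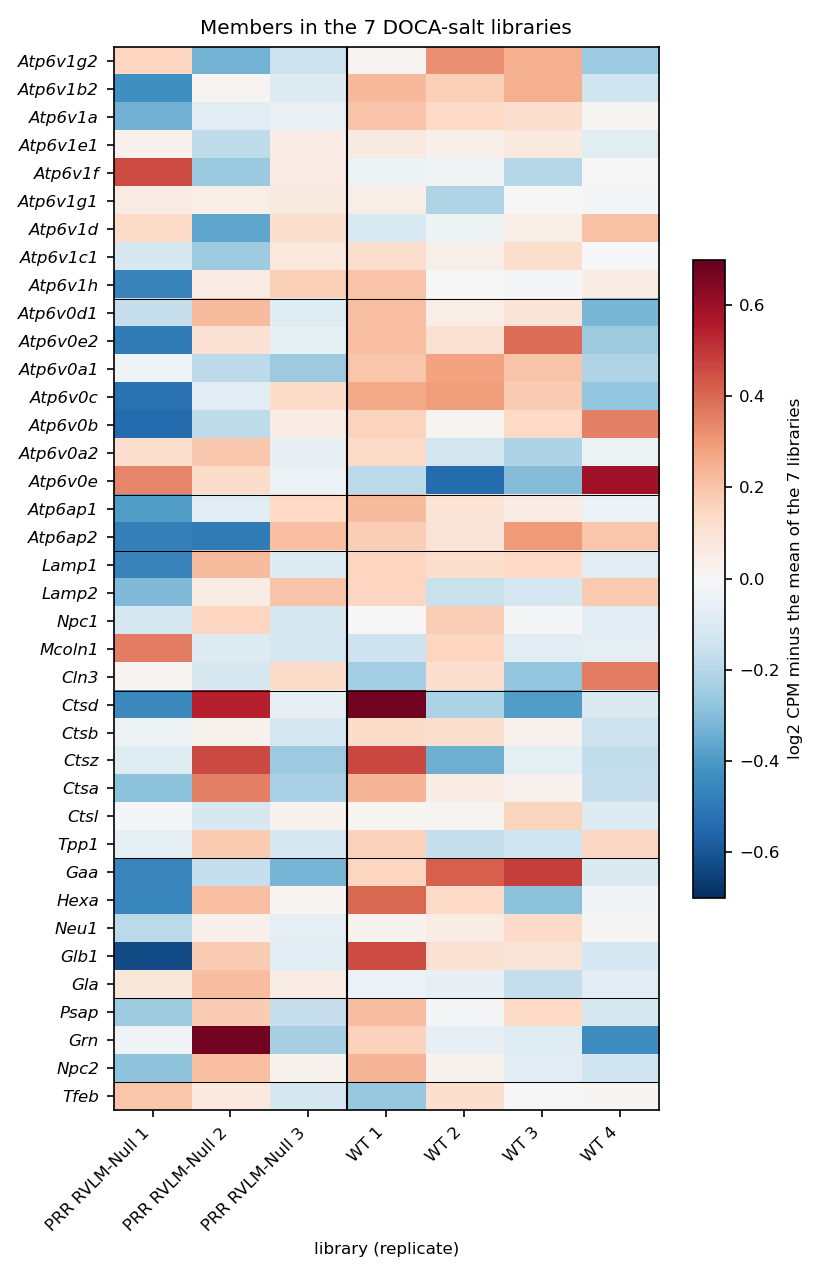
Log2 CPM of each gene in the 7 DOCA-salt libraries minus its mean over them, with the 3 PRR RVLM-Null libraries left of the line and the 4 WT libraries right of it. PRR RVLM-Null replicate 1 is the lowest library in 18 of the 38 rows.

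At baseline, 0 of the 38 genes passed between PRR RVLM-Null and WT mice by edgeR, DESeq2 or limma voom, against 0.0% of all genes tested by edgeR. At an unadjusted p under 0.05 there was 1 (*Atp6v1g1*), against 9.78% of all genes. *Atp6v1g1*, a V1 stator subunit, was at 58.4, 58.0, 59.1 and 52.1 CPM in PRR RVLM-Null mice and 64.0, 67.1, 79.2 and 73.7 CPM in WT mice. Every PRR RVLM-Null library was lower, at a log2 difference of -0.32 ± 0.09 (adjusted p = 0.455). Its paralog *Atp6v1g2* lay the other way, at 228.0, 247.3, 230.6 and 276.0 CPM in PRR RVLM-Null mice and 185.0, 220.2, 219.1 and 208.5 CPM in WT mice. These groups did not overlap either (log2 difference 0.24 ± 0.13, adjusted p = 0.554). Also by the size of p came *Atp6v1f*, a V1 subunit of the central stalk, at -0.29 ± 0.14 (adjusted p = 0.521), and the cathepsin gene *Ctsb*, at 0.15 ± 0.08 (adjusted p = 0.543). The groups of 4 of the 38 genes did not overlap, against 8.28% of all genes. Among V-ATPase genes 15 of 18 fitted differences lay under 0, with a median of -0.07 against -0.01 for all genes, and 12 of 18 with a median of -0.05 without WT baseline replicate 4. Lysosome genes lay the other way, with 7 of 20 under 0 and a median of 0.03, and 10 of 20 with a median of 0.0053 without that replicate. In all, 22 of the 38 lay under 0, against 7628 of all 14852 genes tested. The X-linked genes *Lamp2* (-0.11 ± 0.12), *Gla* (0.10 ± 0.12) and *Atp6ap1* (0.00 ± 0.10) had adjusted p of 0.789, 0.814 and 0.997.

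DOCA-salt against baseline in WT mice gave 3 of the 38 genes at an adjusted p at most 0.05, which is 7.89% of them against 11.2% of all genes tested. *Lamp2* fell (5.96% of all genes fell), and *Gaa* and *Atp6v1g2* rose (5.29% rose). *Lamp2*, an abundant protein of the lysosomal membrane needed for autophagy, was at 96.5, 77.9, 80.0 and 98.9 CPM on DOCA-salt and at 125.1, 119.3, 132.5 and 148.2 CPM at baseline. All DOCA-salt libraries lay below all baseline libraries. The level on DOCA-salt was 0.673 times that at baseline (log2 difference -0.57 ± 0.12, adjusted p = 0.00617), and the call held under all 26 alternatives of scaling, filter, model and libraries, with an adjusted p of 0.000191 to 0.0278.

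*Gaa* was at 401.4, 484.0, 506.2 and 336.9 CPM in WT mice on DOCA-salt and at 297.2, 350.5, 332.8 and 274.3 CPM in WT mice at baseline. The groups overlapped through DOCA-salt replicate 4. The log2 difference was 0.46 ± 0.12 (adjusted p = 0.0206; exact permutation p = 0.0571). *Atp6v1g2* was at 269.6, 332.2, 315.9 and 223.4 CPM on DOCA-salt and at 185.0, 220.2, 219.1 and 208.5 CPM at baseline, with no overlap (log2 difference 0.45 ± 0.13, adjusted p = 0.0294). The calls of *Gaa* and *Atp6v1g2* were lost together, leaving *Lamp2* alone, without WT baseline replicate 1, WT baseline replicate 4, WT DOCA-salt replicate 2 or WT DOCA-salt replicate 3, where 5.59% to 8.78% of all genes passed. Leaving out WT baseline replicate 3 cost the call of *Atp6v1g2* only (adjusted p = 0.0531). None of the 3 genes reached a 2-fold difference, against 2.0% of all genes that passed and did. Groups did not overlap for 5 of the 38 genes, against 18.6% of all genes. *Npc1*, which exports cholesterol from the lysosome, had a log2 difference of -0.23 ± 0.10 (adjusted p = 0.123), and *Atp6ap2* had 0.21 ± 0.13 (adjusted p = 0.301). Summed markers of RVLM neurons were 186.0 to 367.6 CPM on DOCA-salt and 141.0 to 184.8 CPM at baseline, with 4 of 8 markers called higher. Among markers of other cells, *Gfap* of astrocytes (2.09 ± 0.55, log2) and *Syt1* of neurons (adjusted p = 0.0207) were higher. *P2ry12* of microglia (-0.89 ± 0.24) and *Opalin* of oligodendrocytes (-1.03 ± 0.19) were lower. Over their whole lists, fitted differences lay under 0 for 7 of 10 astrocyte, 6 of 12 neuron, 10 of 12 microglia and 7 of 10 oligodendrocyte markers. Their part in these differences was not tested.

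In PRR RVLM-Null mice, DOCA-salt against baseline also gave 3 of the 38 genes, all lower, against 6.6% of all genes tested and 3.82% called lower. None of them reached a 2-fold difference, against 1.56% of all genes that passed and did. *Lamp2* was at 70.2, 90.3 and 99.8 CPM on DOCA-salt and at 131.8, 118.3, 124.0 and 111.5 CPM at baseline. The groups did not overlap, and the log2 difference was -0.49 ± 0.13 (adjusted p = 0.0343). *Atp6v1a* was at 301.6, 362.4 and 367.1 CPM on DOCA-salt and at 447.4, 433.8, 464.3 and 462.8 CPM at baseline. All 3 DOCA-salt libraries were lower, by -0.40 ± 0.09 on the log2 scale (adjusted p = 0.0231). *Npc1* was at 96.0, 116.1 and 96.8 CPM on DOCA-salt and at 136.3, 152.1, 126.4 and 126.6 CPM at baseline, again without overlap (log2 difference -0.39 ± 0.10, adjusted p = 0.0344). Mitochondrial ribosomal RNA took 3.32% to 19.1% of the counts in these mice on DOCA-salt and 20.3% to 25.5% at baseline. Its part in these differences was not tested.

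The number of calls moved with single libraries, as did that over all genes. The count of genes was 0 without PRR RVLM-Null DOCA-salt replicate 1 (2.49% of all genes), or without PRR RVLM-Null baseline replicate 3 (2.48%) or 4 (1.62%). It was 1, *Atp6v1a*, without PRR RVLM-Null baseline replicate 1 (3.26% of all genes) or 2 (3.6%). Without DOCA-salt replicate 2 it was 4 (5.67% of all genes), with *Lamp1* added. Without DOCA-salt replicate 3 it was 4 of 38, against 10.7% of all genes, with *Atp6ap1* and *Atp6ap2* added and *Npc1* lost. *Atp6ap2* then differed by -0.40 ± 0.11 (adjusted p = 0.0264), against -0.13 ± 0.14 (adjusted p = 0.596) with all libraries. Replicate 3 was set apart partly by its *Atp6ap2* level, so the former value is no independent test. *Lamp1*, the partner of *Lamp2* in the lysosomal membrane, had a log2 difference of -0.34 ± 0.13 (adjusted p = 0.104). Groups did not overlap for 8 of the 38 genes, against 20.5% of all genes. Fitted differences lay under 0 in 28 of the 38 genes, against 6977 of all 14852 genes tested. These took in the 5 glycosidase genes and the 2 accessory genes, and also 6 of 7 V0, 5 of 6 protease and 5 of 9 V1 genes. The median of the 38 was -0.12, against 0.02 for all genes. It was -0.05 without DOCA-salt replicate 1 and -0.18 without replicate 2. Summed markers of RVLM neurons were 131.6 to 180.7 CPM on DOCA-salt and 182.2 to 266.9 CPM at baseline. Fitted differences of the single markers lay above 0 for 5 of 8 and under 0 for 3 (median 0.08). By edgeR 0 of 8 were called, with 1 at an unadjusted p under 0.05 (12.5%, against 25.7% of all genes). Summed oligodendrocyte markers were 13270 to 17000 CPM on DOCA-salt and 10540 to 13330 CPM at baseline. Fitted differences of single oligodendrocyte markers lay under 0 for 7 of 10 and above 0 for 3 (median -0.12). *Mobp* was called higher (1.11 ± 0.19) and *Opalin* lower (-0.94 ± 0.20). At an unadjusted p under 0.05 there were 5 of 10, against 25.7% of all genes. The part of these markers was not tested.

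**Figure D5:**
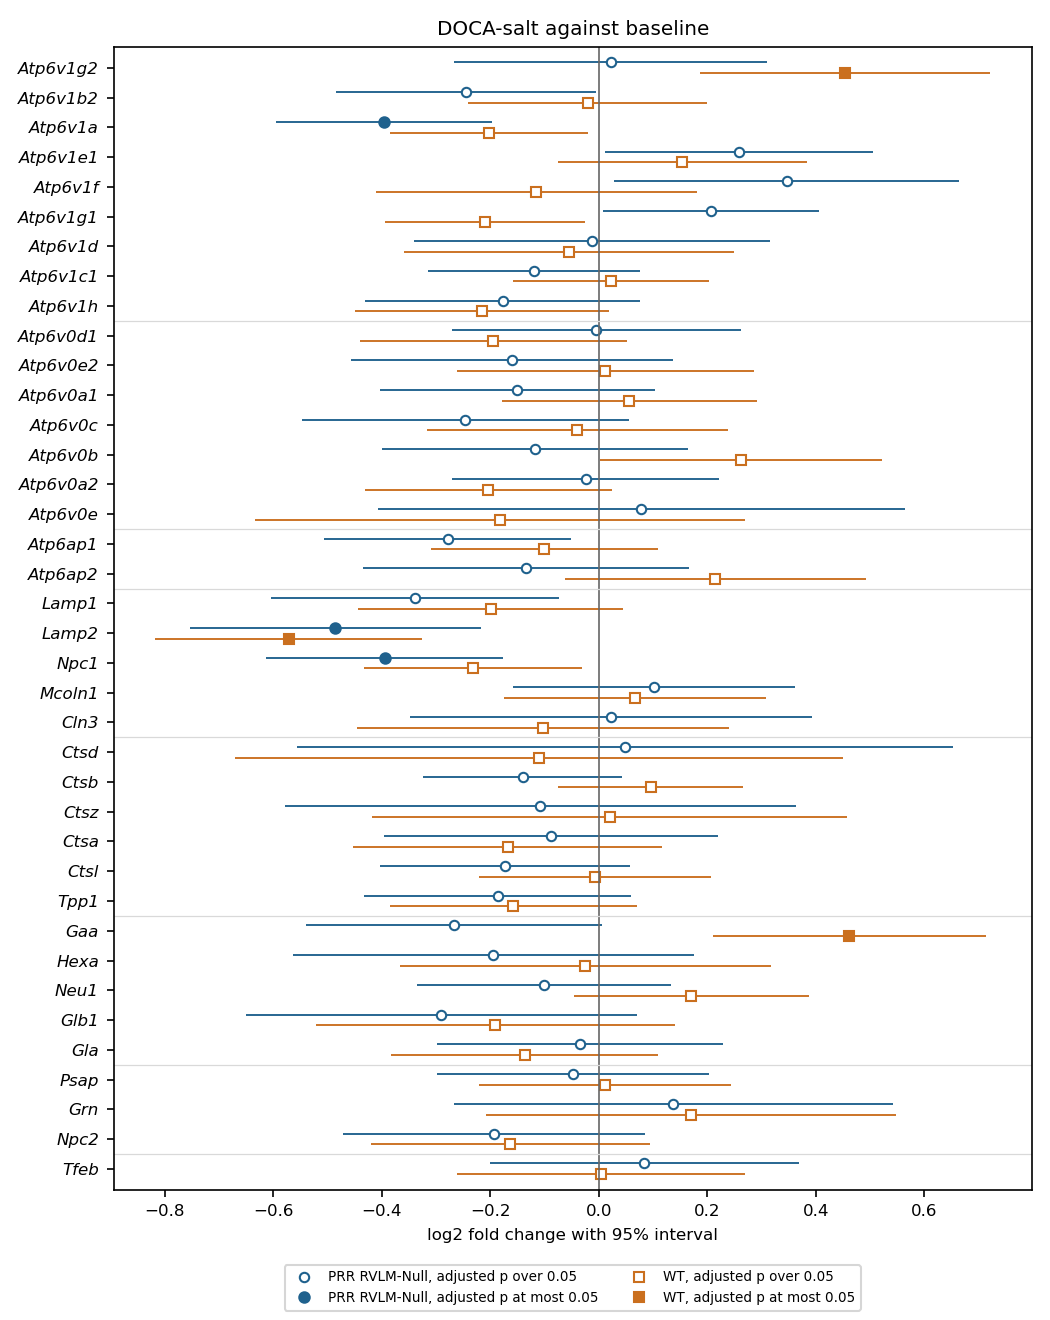
Log2 fold change with 95% interval of DOCA-salt against baseline in PRR RVLM-Null and in WT mice, with filled symbols for an adjusted p at most 0.05. *Lamp2* is filled in both, at -0.49 in PRR RVLM-Null and -0.57 in WT mice, and *Gaa* lies on opposite sides of 0.

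The difference of the DOCA-salt responses (PRR RVLM-Null minus WT) passed for 0 of the 38 genes in edgeR, against 0.498% of all genes tested. There were 4 at an unadjusted p under 0.05, against 16.3% of all genes. DESeq2 called 1 and limma voom called 0, again without a share of all genes for these tools. *Gaa* came nearest, at -0.73 ± 0.18 (95% interval -1.10 to -0.36, adjusted p = 0.0629), with a response of 0.46 in WT mice and -0.27 in PRR RVLM-Null mice. It passed in DESeq2 (adjusted p = 0.00651), with library totals alone (0.0201) and without WT DOCA-salt replicate 4 (0.0136), and the adjusted p ranged from 0.00651 to 0.145 over the 25 alternatives. *Atp6ap2* had -0.35 ± 0.19 (adjusted p = 0.388), and -0.62 ± 0.14 (adjusted p = 0.0283) without PRR RVLM-Null DOCA-salt replicate 3, where 2.4% of all genes passed. Replicate 3 stands apart partly by its *Atp6ap2* level, so the latter value is no independent test. The V1 genes *Atp6v1g1* (0.42 ± 0.13, adjusted p = 0.130), *Atp6v1g2* (-0.43 ± 0.19, adjusted p = 0.264) and *Atp6v1f* (0.46 ± 0.21, adjusted p = 0.276) did not pass. For *Lamp2*, with responses of -0.49 in PRR RVLM-Null and -0.57 in WT mice, the difference was 0.09 ± 0.17 (95% interval -0.27 to 0.45, adjusted p = 0.852).

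Beyond the 38, 139 further genes of the same machinery were listed, of which 130 were tested. In WT mice on DOCA-salt against baseline, 3 of the 130 were higher and 12 lower (5.29% and 5.96% of all genes), and in PRR RVLM-Null mice 1 was higher and 7 lower (2.77% and 3.82% of all genes). Between PRR RVLM-Null and WT mice 0 of the 130 passed in edgeR, with 12 at an unadjusted p under 0.05 on DOCA-salt (9.23%, against 14.2% of all genes) and 9 at baseline (6.92%, against 9.78%). For the difference of responses it was 0 as well, with 16 at an unadjusted p under 0.05 (12.3%, against 16.3%). No other tool was run on these lists. *Vma21*, which helps V0 assemble in the endoplasmic reticulum, was lower by -0.42 ± 0.12 in PRR RVLM-Null and -0.52 ± 0.11 in WT mice. *Dmxl1* and *Dmxl2*, whose proteins belong to the rabconnectin complex that rejoins V1 and V0, were also lower in both genotypes. The log2 differences were -0.56 ± 0.15 in PRR RVLM-Null and -0.46 ± 0.14 in WT mice for *Dmxl1*, and -0.42 ± 0.10 and -0.41 ± 0.09 for *Dmxl2*. *Scarb2*, the receptor that carries glucocerebrosidase to lysosomes, was lower by -0.40 ± 0.08 in PRR RVLM-Null and -0.30 ± 0.08 in WT mice. Other calls were in 1 genotype each. *Prcp*, a lysosomal carboxypeptidase that can cleave angiotensin II, differed by -0.95 ± 0.17 in PRR RVLM-Null mice (adjusted p = 0.00742), and the cysteine protease gene *Lgmn* by -0.64 ± 0.12 in WT mice (adjusted p = 0.00312). *Tpcn2*, an ion channel of the lysosomal membrane, was higher by 0.94 ± 0.25 in WT mice (adjusted p = 0.0245). Of 21 autophagy genes, 0 passed in any comparison by edgeR, against 0.0% to 11.2% of all genes. At an unadjusted p under 0.05 there were 1 to 5 (4.76% to 23.8%), against 9.78% to 27.6% of all genes.

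Within groups, most of the 38 genes varied little between libraries. The SD of log2 CPM within groups had a median of 0.17 over the 38 and of 0.19 over the 11275 tested genes with a mean CPM at least that of the lowest of them. The widest spreads belonged to *Ctsd* (0.40), *Atp6v0e* (0.33), *Ctsz* (0.33), a cathepsin with carboxypeptidase activity, and *Grn* (0.28), which encodes the lysosomal glycoprotein progranulin. *Ctsd* ran from 286.3 to 570.0 CPM in PRR RVLM-Null and from 298.4 to 623.3 CPM in WT mice on DOCA-salt, and from 286.0 to 531.5 CPM in PRR RVLM-Null and from 393.7 to 487.4 CPM in WT mice at baseline. These 4 genes were then set against the summed level of 12 microglia markers in the same libraries, within each cohort, which gave 8 relations with exact permutation tests. The 4 genes were chosen after their spread was seen. Other genes were not set against the markers, so no background is at hand, and the permutations mixed the genotypes of a cohort. For *Ctsd*, Pearson's r was 0.91 over the 7 DOCA-salt libraries (permutation p = 0.0149, adjusted 0.0445) with Spearman's rho 0.86 (adjusted 0.183), but r was 0.41 without the 2 libraries farthest from the median of the markers. At baseline r was 0.75 over 8 libraries (permutation p = 0.0362, adjusted 0.0483) with rho 0.74 (adjusted 0.183), and 0.82 without 2 libraries. For *Ctsz*, r was 0.91 in both cohorts, and without 2 libraries 0.03 on DOCA-salt and 0.90 at baseline, while rho was 0.46 and 0.62. No rank correlation of the 8 passed after adjustment, and on DOCA-salt the relations of *Ctsd*, *Ctsz* and *Grn* rested on 2 libraries. *Atp6v0e* had r of 0.21 on DOCA-salt and 0.25 at baseline, and 0.79 and 0.40 without 2 libraries. For *Grn*, r was 0.79 on DOCA-salt and 0.78 at baseline (adjusted permutation p = 0.0445 in each), and -0.51 and 0.63 without 2 libraries.

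Some counts may take in reads of neighbours or copies, since the handling of strand in counting is not given in the sources used here. Exonic bases were shared with a gene on the other strand in 14 of the 38 genes and with a gene on the same strand in 3. *Ctsd* shares 34.4% of its exonic bases with *Gm49369* on the same strand, and *Ctsl* 26.8% with *Gm47123* on the other. Of the genes that passed a test, *Atp6v1g2* shares 5.74% with *Nfkbil1* and *Npc1* 5.31% with *Gm15956* and *Rmc1*, all on the other strand, while *Lamp2*, *Gaa* and *Atp6v1a* share 0.0%. *Atp6v0c*, the proton-carrying V0 subunit, has a processed pseudogene, *Atp6v0c-ps2*. It was given 75 to 146 reads in PRR RVLM-Null and 160 to 206 reads in WT mice on DOCA-salt, and 77 to 107 and 68 to 98 reads at baseline. *Atp6v0c* itself had 1776 or more in any library. These are raw counts, not scaled for depth, and no difference of the pseudogene was tested.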

How the data were processed

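RNA of RVLM punches was sequenced in 15 libraries. The authors prepared stranded low-input SMART-seq libraries, aligned reads with STAR within MAPR-Seq to GRCm38.p6 with Gencode annotation, and deposited a table of raw counts for each gene, whole and not normalized. The program that counted reads is not given in the sources used here. All 15 count columns were mapped by title, with 0 left unmapped. The authors' tables of fold changes, FDR and RPKM were not used.

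Samples were grouped by their labels. The supplemental methods give the sizes of the DOCA-salt groups the other way round, and the labels were used. Of 21926 protein-coding genes, the 14852 above 1 CPM in 1 library or more were scaled by TMM and fitted with edgeR 4.0.16 (R 4.3.3), with robust quasi-likelihood and 1 term per group over all libraries. Genes passed where p, adjusted by Benjamini-Hochberg across the 14852, was at most 0.05. Differences are log2 with SE. The common biological coefficient of variation was 0.192. Libraries of a group differed beyond sampling noise (chi-square per degree of freedom at least 7.71). RPKM used the exonic lengths in the deposited table, which equal those of Gencode vM21. Alternatives were DESeq2 1.42.0, limma voom 3.58.1, other scaling and filters, a replicate block, the sex pattern as a term, a 2-fold limit and each library left out. Named genes are *Atp6ap2*, genes that passed or the 4 of smallest p in a comparison, X-linked genes, and the extremes of each role by RPKM. *Glb1*, *Ctsd*, *Ctsz*, *Grn*, *Atp6v0e* and genes outside the 38 were named after their values were seen. The 38 genes and the lists were chosen with earlier results of these data known.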

Additional observations from a re-analysis of the deposited data

Results flagged for a closer look

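In 39 groups of 4 libraries among the named genes, 3 had a library farther from its neighbours than Dixon's 95% limit for the gap over the range. Chance flags about 1 in 20 such groups. They were *Atp6v1g1* in PRR RVLM-Null mice at baseline, where replicate 4 was lowest at 52.1 CPM (0.85), *Lamp1* in WT mice on DOCA-salt, where replicate 4 was lowest at 307 CPM (0.868), and *Gla* in WT mice at baseline, where replicate 1 was lowest at 10.5 CPM (0.935).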

How the results depend on the processing

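For PRR RVLM-Null against WT mice under DOCA-salt, 0 genes passed, against 1 with DESeq2 (*Gaa*), 1 with the sex pattern as a term and without PRR RVLM-Null DOCA-salt replicate 3 (*Atp6ap2*), and 0 to 1 with each library left out. At baseline the count was 0 under every alternative tried. For DOCA-salt against baseline in WT mice, 3 genes passed, against 1 to 3 with each library left out and 0 with a 2-fold limit. In PRR RVLM-Null mice 3 passed, against 1 with no filter (*Lamp2*), 1 with limma voom (*Atp6v1a*), 0 with only the groups compared, 0 with a 2-fold limit and 0 to 4 with each library left out. For the difference of the responses 0 passed, against 1 with library totals alone, with DESeq2 or with the replicate block (*Gaa*), 1 with the sex pattern and without replicate 3 (*Atp6ap2*), and 0 to 1 with each library left out. Calls of *Atp6ap2* without PRR RVLM-Null DOCA-salt replicate 3 are no independent test, since that library was set apart partly by its *Atp6ap2* level. Shares of all genes called are not given for the other tools, scaling, filters and models, so those counts are not set beside a background. The cause of these changes was not tested.

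Replicate numbers did not pair libraries: the correlation exceeded 0.1 in 9 of 21 same-numbered pairs (mean 0.01). With the replicate block the counts were 0 and 0 for the genotypes under DOCA-salt and at baseline, 2 in PRR RVLM-Null (*Atp6v1a*, *Npc1*) and 2 in WT mice (*Gaa*, *Lamp2*) for DOCA-salt against baseline, and 1 for the difference (*Gaa*, adjusted p = 0.0378).

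Signs turned for 3 values near 0. *Lamp2* between the genotypes under DOCA-salt was 0.0017 with the block, 0.0047 with the sex pattern, 0.055 with limma voom and -0.14 to 0.10 with each library left out. *Atp6ap2* at baseline was 0.0095 with library totals alone and -0.092 to 0.0062 with each library left out, and *Atp6ap1* at baseline was -0.017 with limma voom and -0.016 to 0.035 with each library left out. Leaving out the scaling factors moved the median of all genes by 0.12 for DOCA-salt against baseline in WT mice and by -0.11 for the difference, and leaving out the filter moved it by 0.15 in PRR RVLM-Null and 0.12 in WT mice. Depth was 19053970 counts or more, and 12598105 or more over the tested genes, and groups of 3 or 4 libraries limit which differences can pass.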
